A study of Mus musculus with 3 samples.

Results

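The genes described here are 8 mouse genes of bicarbonate transport and pH, out of 32285 features in the count tables. They were listed by name, with the difference in Slc4a3 between ages already known, and are the chloride-bicarbonate exchangers Slc4a2 and Slc4a3, the sodium-coupled bicarbonate transporters Slc4a4, Slc4a7, Slc4a8 and Slc4a10, and the carbonic anhydrases Car2 and Car14. All 8 were present in the tables. Their counts were summed over horizontal cells of the mouse retina in 3 single-cell libraries. The libraries came from mice aged 6, 8 and 11 days, labelled P6, P8 and P11, with 1 library per age.

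All 3 libraries came from mice of the same genotype, Cx57icre;Ai14, so no group differs in genotype or treatment. Cx57icre places Cre recombinase under the gene of connexin 57, a gap junction protein of horizontal cells, and the Ai14 allele turns on a red fluorescent protein in any cell where Cre has acted and in its descendants. Sorted cells were therefore those with past Cre activity, of whatever type. Strain background, sex and the number of mice behind each library were not stated in the labels. The series concerns ankyrins in synapse development of the outer retina, and its design sets the 3 ages side by side. With 1 library per age there was no replicate check and no test. Effects of age and of the library cannot be told apart, and every interval below covers counting error only.

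Horizontal cells are inhibitory interneurons whose processes end beside the synaptic terminals of rods and cones, and they feed back onto those terminals. One proposed form of this feedback acts through protons in the synaptic cleft, which hold back the calcium channels of the photoreceptor terminal. Proton levels in and around a neuron depend on bicarbonate, which carbonic anhydrases make from carbon dioxide and water and which transporters of the Slc4 family move across the membrane, either in exchange for chloride or together with sodium.

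A barcode was kept if it showed 1000 genes or more and if no more than 10% of its unique molecular identifiers (UMIs) were mitochondrial, and was taken as a horizontal cell with a UMI of at least 2 of Lhx1, Onecut1 and Onecut2, transcription factors of this cell type. This left 7145, 3153 and 4757 cells for P6, P8 and P11, which were 94.4%, 96.1% and 96.2% of the kept barcodes and held 82305608, 62520239 and 103160766 UMIs. Median UMIs per cell were 12161, 20671 and 22106. The horizontal cell marker Calb1, which took no part in the choice, stood at 702, 1714 and 2952 counts per 1000000 UMIs (CPM). Summed markers in these cells lay between 5.02 and 5.69 CPM over the 3 ages for 5 rod genes and between 1.74 and 7.87 CPM for 5 Müller glia genes, against 5808 to 8350 CPM for 7 horizontal cell genes. Those 7 include Lhx1, Onecut1 and Onecut2, at 703, 766 and 1025 CPM at P6. The cells were chosen by these genes, so part of the horizontal sum follows from the choice. The 5 amacrine markers summed to 291, 271 and 254 CPM. Between 8 and 15 barcode sequences were shared by any pair of libraries.

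The promoter stretches of 3 members are shown because their P11 to P6 ratios, given further on, lie far apart: Slc4a3 has the highest of the set, Slc4a7 the lowest, and Slc4a8 is the most abundant sodium-coupled member and lies between them. Each stretch is the 79 bases just before the RefSeq start, on the strand of the gene, credited to RefSeq on build GRCm38.p6. Capitals mark the GC box in Slc4a3, a CCAAT box read from the opposite strand in Slc4a8 and Slc4a7, and the TATA box in Slc4a7.
Slc4a3, chr1:75546383-75546461, plus strand: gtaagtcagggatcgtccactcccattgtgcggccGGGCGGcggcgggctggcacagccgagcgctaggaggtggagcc
Slc4a8, chr15:100761668-100761746, plus strand: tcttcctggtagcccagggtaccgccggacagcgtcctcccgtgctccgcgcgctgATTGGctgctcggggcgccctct
Slc4a7, chr14:14718705-14718783, plus strand: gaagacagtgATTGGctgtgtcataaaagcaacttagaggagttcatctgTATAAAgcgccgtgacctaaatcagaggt
The stretches of Slc4a3 and Slc4a8 were each 70.9% G or C and that of Slc4a7 was 43.0%, beside a median of 55.7% over all promoters. The Slc4a3 stretch begins directly after an exon of another transcript in GENCODE vM21, and the Slc4a7 stretch lies inside the span that GENCODE gives to that gene.

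RefSeq promoter windows of 300 bases, 250 before and 50 after the start, were held for 7 of the 8 genes, in 10 windows. On either strand, CCAAT was found in windows of Slc4a4, Slc4a7, Slc4a8 and Slc4a10, against 37.4% of all 32851 promoters. GGGCGG was found for Slc4a3 and Slc4a4 (35.7% of all promoters) and TATAAA for Slc4a7 and Slc4a10 (13.6%). ATCAAT, a core that Onecut factors bind, occurred in 7.54% of all promoters, TAATTA, a core of LIM homeodomain factors such as Lhx1, in 5.29%, and the E-box CACGTG in 7.15%. None of these 3 motifs was found in the 10 windows. These are matches of letters in short windows and not measured sites.

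Slc4a3, which encodes the anion exchanger AE3, was the dominant gene of the set at every age. Its product trades chloride for bicarbonate across the membrane without sodium. The gene lies at chr1:75546266-75562172 on the plus strand (mm10) and overlaps no other annotated gene. It stood at 506, 851 and 2161 CPM at P6, P8 and P11, with 95% intervals of 501 to 511, 843 to 858 and 2152 to 2170 CPM, from 41623, 53185 and 222924 UMIs. Each age lay above the one before, and the intervals do not overlap. Ranked by UMIs among all features, Slc4a3 took places 307, 154 and 37.

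The P11 to P6 ratio of Slc4a3 was 4.27 (4.23 to 4.32), a log2 ratio of 2.10. Genes were compared where either age had 20 CPM or more, and 30 of these 7161 genes had a higher ratio. Among the 106 of them with at least 1000 CPM at P11, 4 did. Slc4a3 passes that level only at P11, where it is high, and was listed with its difference known. Both places therefore describe the size of the ratio and are no test of it. The step was larger between the later ages, with a P11 to P8 ratio of 2.54 (2.52 to 2.56), than between the earlier ones, with a P8 to P6 ratio of 1.68 (1.66 to 1.70). The 2 steps cover unequal numbers of days, and no rate per day was computed. In log2 the earlier and later steps were 0.75 and 1.34. They were closer under the 2 other scalings described further on, at 1.03 and 1.27 with TMM and 1.07 and 1.23 with median-of-ratios factors.

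Slc4a2, which encodes the related and widely expressed exchanger AE2, was near the bottom of the range. It had between 2.30 and 3.21 CPM over the 3 ages, from 244, 144 and 331 UMIs at P6, P8 and P11. Its P11 to P6 ratio of 1.08 had an interval of 0.915 to 1.28 that includes 1. The gene (chr5:24423837-24440950, plus strand, mm10) overlaps Fastk on the opposite strand, and whether the counting used strand is not given in the sources used here, so reads of the overlap could belong to either gene. Counted transcripts of AE3 outnumbered those of AE2 by far at all 3 ages.

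**Figure D1:**
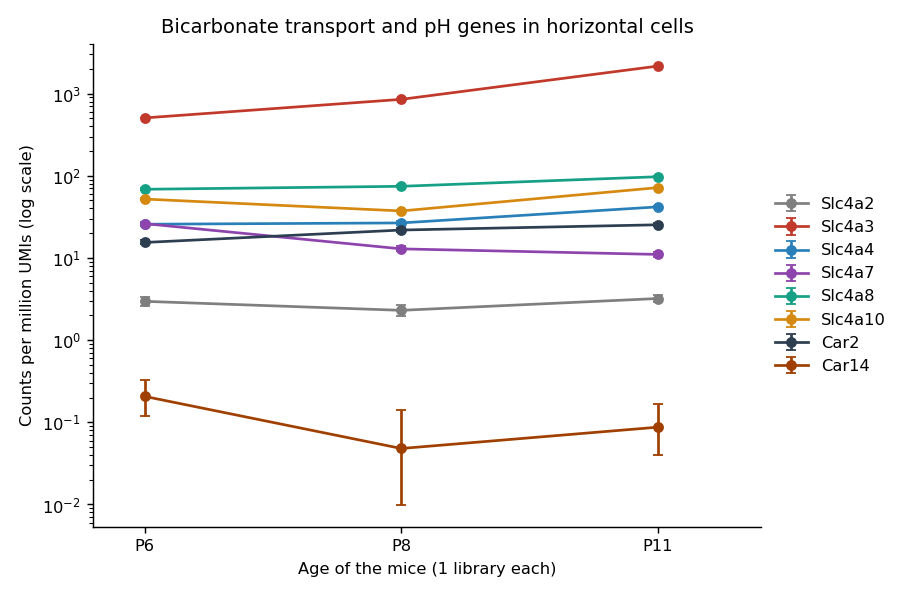
Level of each of the 8 genes in summed horizontal cells at P6, P8 and P11, in CPM on a log axis; points are 1 library each and bars are exact Poisson 95% intervals. Slc4a3 climbs to 2161 CPM at P11, Slc4a7 ends at 11.0 CPM, and Car14 stays below 1 CPM at all 3 ages.

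The sodium-coupled members did not share 1 direction. These transporters bring bicarbonate into the cell with sodium: Slc4a4 encodes the electrogenic cotransporter NBCe1, Slc4a7 the electroneutral cotransporter NBCn1, Slc4a8 the sodium-driven chloride-bicarbonate exchanger NDCBE, and Slc4a10 the transporter NCBE, also called NBCn2. Together they made up 172, 151 and 222 CPM at P6, P8 and P11.

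Slc4a8 was the most abundant of them. It had 68.5, 74.4 and 97.3 CPM at P6, P8 and P11, from 5636, 4652 and 10042 UMIs, and was 1.42-fold higher at P11 than at P6 (1.38 to 1.47). It lies at chr15:100761747-100823968 (plus strand, mm10), with no overlapping gene. Each age was above the one before, by less than 1.5-fold in both steps.

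Slc4a10 had its lowest level at the middle age. It stood at 52.0, 37.3 and 71.7 CPM at P6, P8 and P11, from 4283, 2332 and 7399 UMIs. The P8 to P6 ratio was 0.717 (0.681 to 0.754), the P11 to P8 ratio 1.92 (1.84 to 2.02) and the P11 to P6 ratio 1.38 (1.33 to 1.43). The gene spans chr2:62046462-62326730 (plus strand, mm10).

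Slc4a4 was level over the first step and higher after it. It had 25.7, 26.7 and 41.8 CPM at P6, P8 and P11, from 2117, 1667 and 4315 UMIs. The P8 to P6 ratio was 1.04 (0.972 to 1.11), and P11 was 1.57-fold above P8 (1.48 to 1.66) and 1.63-fold above P6 (1.54 to 1.71). It spans chr5:88886818-89239653 (plus strand, mm10).

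Slc4a7 went the other way. It had 26.1, 12.9 and 11.0 CPM at P6, P8 and P11, from 2151, 806 and 1138 UMIs, and its level at P11 lay 2.37-fold below that at P6 (2.20 to 2.55). Most of the difference lay in the first step, with P8 2.03-fold below P6 (1.87 to 2.20) and P11 1.17-fold below P8 (1.07 to 1.28). Long genes as a group, described further on, were also low at P8. Their median log2 ratio was -0.73 for P8 over P6, beside -1.02 for Slc4a7. For P11 over P8 it was 0.43, beside -0.22 for Slc4a7, which was below 20 CPM at both ages. Whether the timing of the Slc4a7 difference goes with its span was not tested. The gene lies at chr14:14702279-14799940 (plus strand, mm10). At P6 Slc4a4 and Slc4a7 were nearly level, at 25.7 and 26.1 CPM with overlapping intervals, while at P11 Slc4a4 was at 41.8 and Slc4a7 at 11.0 CPM.

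Of the carbonic anhydrases, Car2 was present at a low level and Car14 was close to absent. Car2 encodes the fast cytosolic enzyme and Car14 a membrane enzyme that faces the outside of the cell. Car2 (chr3:14886273-14900770, plus strand, mm10) had 15.4, 21.8 and 25.3 CPM at P6, P8 and P11, from 1270, 1366 and 2612 UMIs, and was 1.64-fold higher at P11 than at P6 (1.53 to 1.76). Car14 (chr3:95897768-95904691, minus strand, mm10, overlapping Aph1a on the other strand) had 17, 3 and 9 UMIs in all horizontal cells of P6, P8 and P11, or 0.207, 0.0480 and 0.0872 CPM. Its P11 to P6 ratio of 0.422 had an interval that runs from 0.166 to just above 1 and gives no direction.

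Slc4a2 and Car14 did not reach 20 CPM at any age, so 6 members entered the P11 to P6 comparison. Of these 6, 3 were at least 1.5-fold higher at P11 (Slc4a3, Slc4a4 and Car2), against 7.35% of the 7161 genes compared, and 1 was at least 1.5-fold lower (Slc4a7), against 12.3%. The set was put together with the difference in Slc4a3 in view, so its place among the higher members is no result of this count. Car2 reached 20 CPM at P11 but not at P6, and Slc4a7 at P6 but not at P11. Each thus entered only through the age where it was higher. The median log2 ratio was 0.60 over the 6 members, Slc4a3 included, and -0.08 over all genes. For P8 over P6, 1 of 6 members was higher (Slc4a3, all genes 7.97%) and 1 was lower (Slc4a7, all genes 21.7%), with a median of 0.09 against -0.14. Among genes of long span, Slc4a7 included, 61.1% were lower in this comparison, as described further on. For P11 over P8, 3 of 5 members were higher (Slc4a3, Slc4a4 and Slc4a10, all genes 10.4%) and 0 were lower (all genes 4.55%), with a median of 0.65 against 0.07. The pairs of ages share libraries, so these 3 comparisons are not independent of each other.

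The scaling of the libraries matters to these counts. Over all genes, 526 of 7161 were higher and 883 lower at P11 than at P6 in CPM. With edgeR's TMM factors 988 of 7038 were higher and 485 lower. With median-of-ratios factors 984 of 7005 were higher and 484 lower, and the median log2 ratio was 0.13. With either set of factors Slc4a8 and Slc4a10 joined the higher members, making 5 of 6, and Slc4a7 stayed lower. These member counts stand beside the counts over all genes under the same factors, and not beside the shares in CPM. For P8 over P6 the share of higher genes among those past 1.5-fold was 26.9% in CPM, 64.5% with TMM and 69.3% with median-of-ratios factors, and for P11 over P8 it was 69.6%, 51.4% and 42.4%. With both sets Car2 joined the higher members of P8 over P6, and Slc4a4 left those of P11 over P8. Over all genes, 1439 of 6955 (TMM) and 1606 of 6972 (median-of-ratios) were higher for P8 over P6. For P11 over P8, 526 of 6924 and 448 of 6926 were higher.

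**Figure D2:**
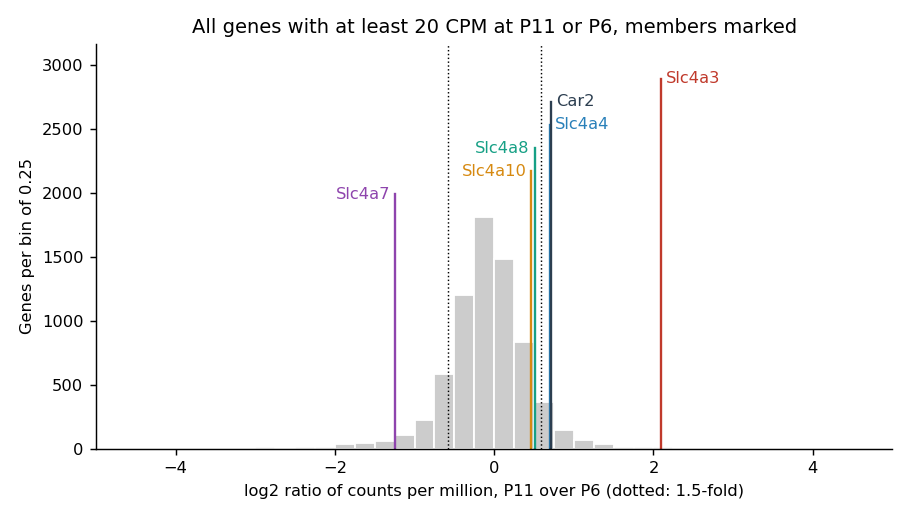
Histogram of log2 ratios, P11 over P6, of the 7161 genes with at least 20 CPM at either age (bars, bins of 0.25), with coloured lines at the 6 members compared and dotted lines at 1.5-fold. Slc4a3 lies far to the right at 2.10, Slc4a4 and Car2 just past the right dotted line, and Slc4a7 left of the lower one at -1.24.

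Slc4a3 took a growing share of the Slc4 transcripts counted. The 10 Slc4 genes together had 870, 1208 and 2803 CPM at P6, P8 and P11. Slc4a3 made up 58.1%, 70.4% and 77.1% of these UMIs, with exact binomial intervals of 57.8 to 58.5%, 70.1 to 70.7% and 76.9 to 77.2%. The 4 sodium-coupled members made up 19.8%, 12.5% and 7.92%. A 3' UMI is counted once per captured molecule and was not divided by transcript length, so these are shares of counted molecules.

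The second gene of the family was Slc4a5, which encodes the electrogenic cotransporter NBCe2 and is not among the 8. It had 187, 203 and 416 CPM at P6, P8 and P11, was 2.22-fold higher at P11 than at P6 (2.18 to 2.27), and made up 21.5%, 16.8% and 14.9% of the family's UMIs. Sodium-coupled transporters including Slc4a5 thus summed to 360, 354 and 638 CPM, while their share of the family was 41.3%, 29.3% and 22.8%. Both the exchanger and the sodium-coupled group had more CPM at P11 than at P6, and the exchanger had the larger ratio.

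The difference in Slc4a3 ran through nearly all cells rather than through a few. Cells were thinned to 3000 UMIs each, which left out 377, 97 and 90 shallower cells at P6, P8 and P11. Of the thinned cells, 75.4%, 87.0% and 99.4% held a Slc4a3 UMI at P6, P8 and P11, with intervals of 74.4 to 76.4%, 85.7 to 88.2% and 99.1 to 99.6%, and without thinning the shares were 95.8%, 99.4% and 100%. The median thinned cell had 1, 2 and 6 Slc4a3 UMIs at P6, P8 and P11. At P11 97.9% of cells exceeded the P6 median, and 73.4% exceeded the 95th percentile of P6, which was 4 UMIs. The reverse was rare, with 0.340% of P6 cells above the P11 median.

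**Figure D3:**
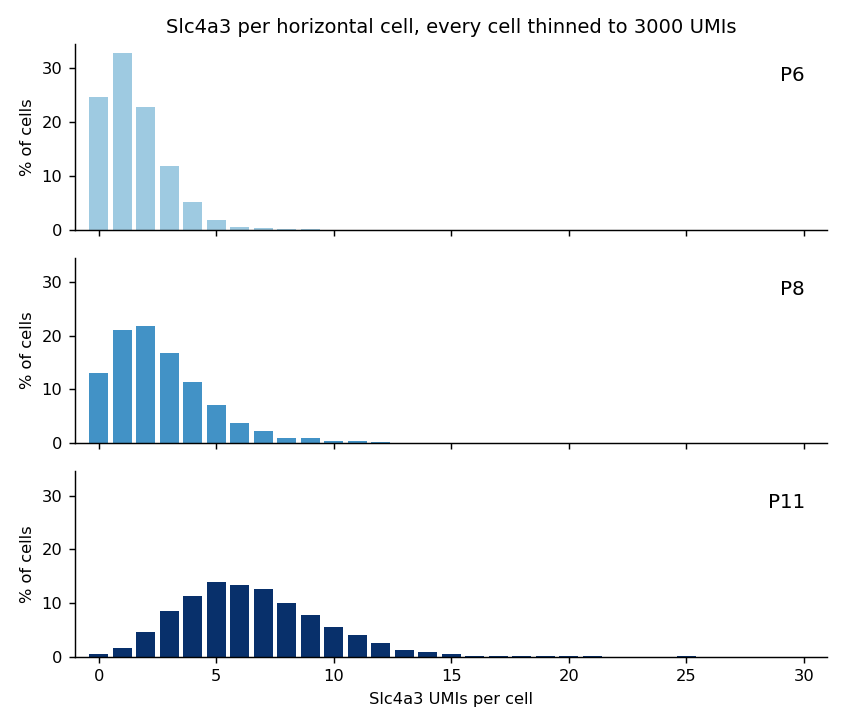
Share of horizontal cells, in percent, by their number of Slc4a3 UMIs after thinning every cell to 3000 UMIs, for P6, P8 and P11 from top to bottom. The peak moves from left to right as a whole, with medians of 1, 2 and 6 UMIs, and few cells remain at 0 at P11.

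The variance of Slc4a3 between cells, relative to its mean, was largest at P8. The variance of thinned counts divided by their mean, which counting alone would put at 1, was 1.15 at P6, 1.73 at P8 and 1.52 at P11. For members with a mean far below 1 UMI per thinned cell counting dominates this quantity and keeps it near 1, so theirs are not set against it.

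At P8, cells with more Mgarp had more Slc4a3. Mgarp, a gene whose level in these cells was 160, 2641 and 5433 CPM at P6, P8 and P11, was used to split the thinned cells into 3 groups, of 827 to 1197 cells at P8 and 1305 to 1799 at P11. At P6 tied low counts allowed only 2 groups, and Slc4a3 had 490 CPM in the lower (4652 cells) and 514 CPM in the higher (2116 cells). In the low, middle and high Mgarp group of P8 cells, Slc4a3 stood at 778, 872 and 998 CPM. At P11 the same groups had 2250, 2181 and 2119 CPM, in the other order. Across the cells of 1 library, the Spearman correlation between Slc4a3 and Mgarp was 0.02, 0.15 and -0.03 at P6, P8 and P11, over 6768, 3056 and 4667 thinned cells that share their library, and these weak values are a description.

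Among the kept cells of a library, the Slc4a3 level depended little on depth, and no split of them within an age reached the level of the next. Barcodes over 10% mitochondrial UMIs, left out here, were higher. At P6 they had 1002 CPM of Slc4a3, above the 851 CPM of P8 horizontal cells. In 4 groups of equal size by UMIs per cell, Slc4a3 ran between 450 and 540 CPM at P6, 737 and 931 at P8, and 2104 and 2257 at P11. In 4 groups by mitochondrial share, the group with the highest share had 530, 997 and 2265 CPM at P6, P8 and P11, against 487, 743 and 2117 CPM in the group with the lowest. Cells with a UMI of Vax2, a transcription factor of the ventral retina, had 494, 865 and 2092 CPM at P6, P8 and P11, against 512, 843 and 2195 CPM in cells without one.

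Slc4a7 also differed within the older library. In the low, middle and high Mgarp group at P11 it had 15.8, 11.7 and 7.15 CPM, from 74, 63 and 28 UMIs. At P8 the groups had 18.1, 13.9 and 14.1 CPM. Over the 4 groups by UMIs per cell Slc4a7 lay between 24.6 and 29.4 CPM at P6, 10.7 and 16.2 at P8, and 8.93 and 12.0 at P11, so the gap between P6 and the later ages was present at every depth.

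After thinning to 3000 UMIs, the other members were found in a minority of cells. Slc4a7 was found in 7.15%, 4.35% and 3.45% of cells at P6, P8 and P11, and without thinning in 24.3%, 21.7% and 20.2%. For Slc4a8 the thinned shares were 18.1%, 19.4% and 26.3% (50.1%, 71.5% and 82.9% unthinned), and for Slc4a10 13.5%, 10.1% and 19.8% (39.7%, 47.2% and 71.7%). Car2 was found in 4.67%, 5.66% and 7.16% of thinned cells (15.4%, 33.4% and 39.2%), and Slc4a4 in 7.31%, 7.23% and 11.4% (22.9%, 35.4% and 51.1%). Slc4a2 was found in 0.916%, 0.720% and 0.771% (3.33%, 4.50% and 6.68%), with overlapping intervals. At equal depth these data cannot separate few expressing cells from low expression in all.

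The libraries also held 197, 63 and 111 kept barcodes (P6, P8 and P11) with no UMI of Lhx1, Onecut1 or Onecut2, with median UMIs of 2314, 3018 and 3463. Slc4a3 was lower in them than in horizontal cells at every age. Horizontal cells had 506, 851 and 2161 CPM at P6, P8 and P11, against 173, 224 and 254 CPM in the barcodes without these markers. Calb1 stood at 702, 1714 and 2952 CPM in horizontal cells, against 208, 274 and 219 CPM in those barcodes. Thinned to 2000 UMIs, 61.7%, 78.2% and 98.1% of horizontal cells held a Slc4a3 UMI, against 21.8%, 22.6% and 21.7% of the others, whose share stayed near the same value at all 3 ages.

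Slc4a7, Car2 and Slc4a10 were the other way round. Thinned to 2000 UMIs, Slc4a7 was found in 5.35%, 2.79% and 2.11% of horizontal cells at P6, P8 and P11, against 19.4%, 22.6% and 20.5% of the barcodes without horizontal markers. Car2 was found in 3.06%, 4.17% and 4.95% of horizontal cells, against 21.8%, 15.1% and 28.9%. Slc4a10 was found in 10.2%, 7.51% and 14.5%, against 31.5%, 24.5% and 39.8%. Slc4a8 was found in 12.5%, 15.3% and 18.6% of horizontal cells, against 5.65%, 11.3% and 13.3% of those barcodes. Slc4a4 was found in 4.59%, 4.88% and 8.01%, against 2.42%, 5.66% and 10.8%, with overlapping intervals at each age. Slc4a7, Car2 and Slc4a10 were therefore found less often in horizontal cells than in the other barcodes of the same libraries. In droplet data free RNA gives some UMIs to cells that do not make a transcript, and its part in these low levels was not tested beyond the comparison with a Müller marker gene that follows.

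Small groups of these barcodes carried markers of other retinal classes, and the members differed sharply among them. Rod-like barcodes (14 at P6, 27 at P8 and 30 at P11, each with a UMI of at least 3 rod markers) were rich in Slc4a7, a gene whose loss causes photoreceptor degeneration in mice. Horizontal cells had 26.1, 12.9 and 11.0 CPM of Slc4a7 at P6, P8 and P11, against 326, 482 and 720 CPM in rod-like barcodes, from 10, 33 and 47 UMIs. The level in horizontal cells was 8.02%, 2.68% and 1.53% of that in rod-like barcodes, so the 2 kinds of barcode moved further apart at each age. Whether free RNA of rods has a part in the Slc4a7 level of horizontal cells was not tested.

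Slc4a10 and the carbonic anhydrases had other sites. Horizontal cells had 52.0, 37.3 and 71.7 CPM of Slc4a10 at P6, P8 and P11, against 267, 198 and 493 CPM in the 23, 10 and 24 bipolar-like barcodes, from 19, 8 and 57 UMIs. Rod-like barcodes held 0 Slc4a10 UMIs in all 3 libraries, which at a floor of 3 counts allows up to 97.8, 43.8 and 45.9 CPM. Müller-like barcodes, 5 at P11 and 20 at P6, were rich in both anhydrases, and the single one at P8 is not given. At P11 Car2 had 25.3 CPM in horizontal cells, against 1670 CPM in Müller-like barcodes (29 UMIs), and at P6 15.4 CPM, against 572 CPM (31 UMIs). At P11 Car14 had 0.0872 CPM in horizontal cells, against 576 CPM in Müller-like barcodes (10 UMIs), and at P6 0.207 CPM, against 221 CPM (12 UMIs).

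For Car14 the level in horizontal cells was 0.0152% of that in Müller-like barcodes at P11 and 0.0933% at P6, near the 0.0268% (P11) and 0.0962% (P6) of the Müller gene Rlbp1. Such a share cannot be told from background, and Car14 gave no sign of its own in horizontal cells at this depth. For Car2 the shares were 1.52% at P11 and 2.70% at P6, above those of Rlbp1. Müller-like barcodes were chosen by their markers, Rlbp1 among them, which raises the level of Rlbp1 there.

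**Figure D4:**
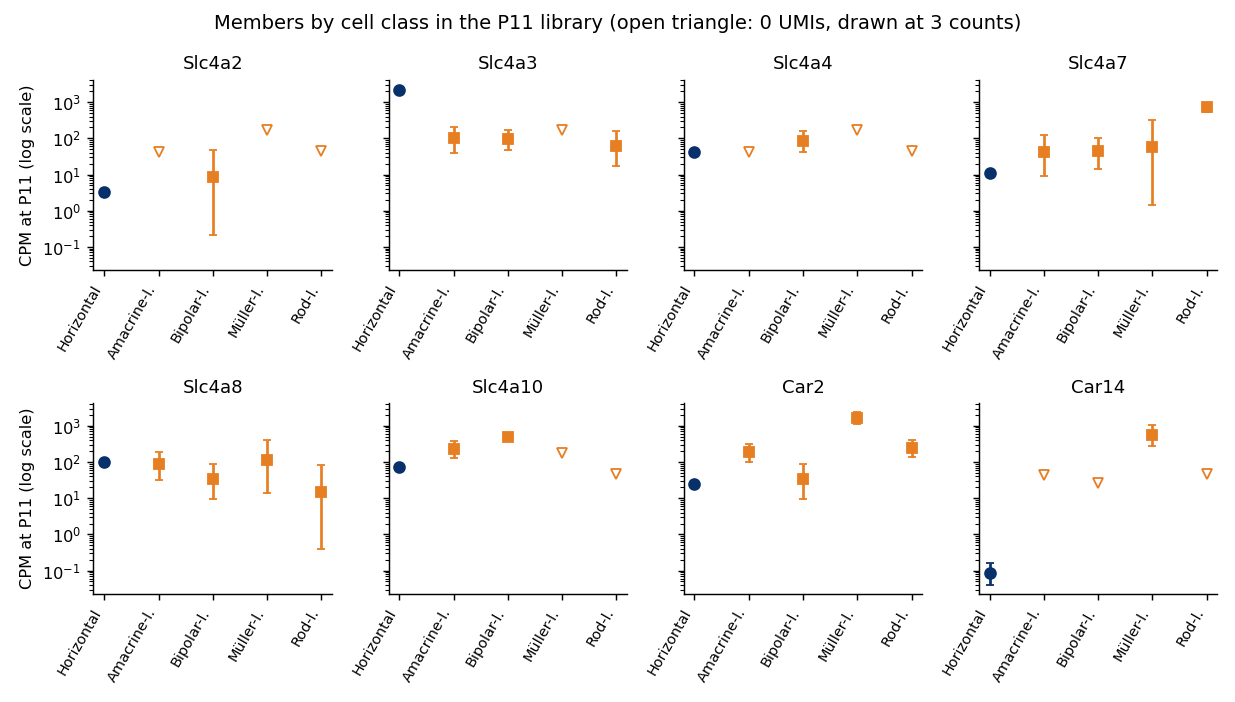
Level of each of the 8 genes in the P11 library, in CPM on a log axis, in horizontal cells (blue circles) and in amacrine-like, bipolar-like, Müller-like and rod-like barcodes (orange squares; bars are exact Poisson 95% intervals; open triangles mark 0 UMIs, drawn at 3 counts). Slc4a3 is highest in horizontal cells at 2161 CPM, Slc4a7 in rod-like barcodes at 720, Slc4a10 in bipolar-like barcodes at 493, and Car2 and Car14 in Müller-like barcodes at 1670 and 576.

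The genomic span of a gene moved with its ratio between libraries, which bears on the long members. Genes compared at P8 and P6 were divided into 5 equal groups by span. In the shortest group the median P8 to P6 log2 ratio was 0.27, at a median span of 4.81 kb. In the longest it was -0.73, at a median span of 164 kb, and 61.1% of those genes were at least 1.5-fold lower. For P11 over P6 the medians were 0.03 and -0.29. For P11 over P8 the order was the reverse, with -0.26 in the shortest group and 0.43 in the longest, of which 32.1% were at least 1.5-fold higher. Why span and ratio moved together was not tested. The other genes of acid and base handling named below, such as Slc9a9, Stk39 and Wnk2, were not set against genes of like span.

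Slc4a4 (353 kb), Slc4a10 (280 kb) and Slc4a7 (97.7 kb) fell in the longest group for P8 over P6 and P11 over P6. Their P8 to P6 log2 ratios were 0.05, -0.48 and -1.02, so that Slc4a4 and Slc4a10 lay above the median of their span group and Slc4a7 below it. Their P11 to P6 log2 ratios were 0.70, 0.46 and -1.24, beside the group median of -0.29. The calls of Slc4a7 as lower thus stand beside 61.1% of long genes for P8 over P6 and 27.0% for P11 over P6. Over all genes these shares were 21.7% and 12.3%. For P11 over P8 the log2 ratios of Slc4a4 and Slc4a10 were 0.65 and 0.94, beside the group median of 0.43, so their calls as higher there stand beside 32.1% of long genes and not 10.4%. Slc4a3 (15.9 kb) and Car2 (14.5 kb) fell in the second group, where the median was -0.01 for P11 over P6 and 0.05 for P8 over P6. The P11 to P6 log2 ratio of Slc4a3 was 2.10, and 8.31% of the genes in its span group were at least 1.5-fold higher. Slc4a3 was listed with this difference known, so its distance from the group median is a description only. The dip of Slc4a10 at P8 was smaller than that of the median long gene.

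**Figure D5:**
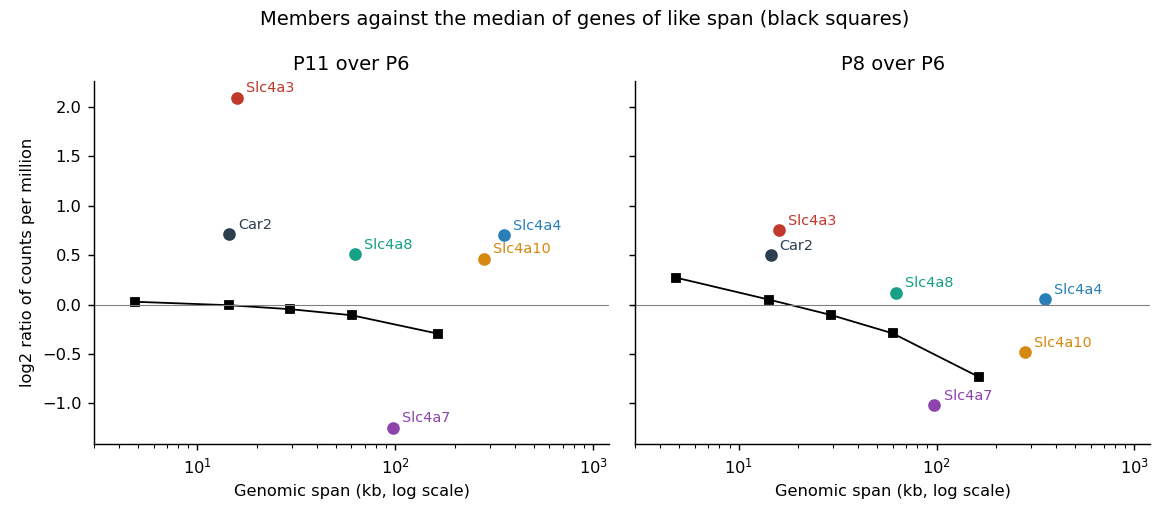
log2 ratio of CPM against genomic span in kb (log axis) for the 6 members compared (coloured points), with the median of all genes in 5 groups of span (black squares joined by a line); P11 over P6 on the left and P8 over P6 on the right. The black line slopes down to -0.29 and -0.73 at the long end, and Slc4a3 stands at 2.10 and 0.75 above a group median near 0.

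The gene with the pattern most like Slc4a3 over the 3 ages was Appl2, an endosomal adaptor. Likeness was the distance between the pairs of log2 ratios P8 over P6 and P11 over P8, among 2216 genes that reached 100 CPM at some age. Appl2 had 50.7, 78.6 and 226 CPM at P6, P8 and P11 and a distance of 0.21. It was followed by Ly6e (0.36), Faim2 (0.38), Olfml3 (0.43), Arhgef26 (0.44), Pla2g7 (0.49), Tkt (0.53) and Abca2 (0.56). Slc4a3 was more abundant at P11 than all 8 of these, the nearest being the transketolase gene Tkt at 1333 CPM. With 3 libraries, many genes can share a pattern without any other tie.

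The other genes of acid and base handling did not move with Slc4a3 as a body. Of 14 other carbonic anhydrases and 11 Slc26 anion exchangers, 0 reached 20 CPM, and the highest of each were Car11 (11.7, 10.6 and 13.0 CPM at P6, P8 and P11) and Slc26a11 (17.5, 13.1 and 15.7). Car2 was thus the most abundant carbonic anhydrase measured at all 3 ages. Of the other 4 Slc4 genes, Slc4a5 was the only one to reach 20 CPM.

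Sodium-proton exchangers move acid out of cells or organelles. Of 15 genes of this list, regulators included, 4 were compared, and at P11 0 were at least 1.5-fold higher than at P6 (all genes 7.35%) and 2 were lower (all genes 12.3%). Of those below the minimum, Chp2, a cofactor of these exchangers that was chosen after its values were seen, had 1.01, 3.66 and 4.47 CPM at P6, P8 and P11, and was 4.43-fold higher at P11 than at P6 (3.50 to 5.67). Slc9a9, an endosomal exchanger, had 34.7, 10.6 and 18.0 CPM at P6, P8 and P11 and lay 1.93-fold lower at P11 than P6. Slc9a7, of the trans-Golgi network, had 23.9, 8.49 and 14.5 CPM and was 1.64-fold lower, which no longer passed 1.5-fold with TMM or median-of-ratios factors. Slc9a9 and Slc9a7 reached 20 CPM only at P6, so they entered through the age where they were high. The median log2 ratio of the 4 was -0.60.

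The V-ATPase, the proton pump that acidifies vesicles and organelles, was abundant, and most subunits lay within 1.5-fold. Of 26 listed genes 18 were compared: 1 was higher at P11 than at P6, 2 were lower and 15 lay between, with a median log2 ratio of 0.18. These counts are near the shares over all genes, 7.35% higher and 12.3% lower. Atp6v1a, the catalytic A subunit, had 367, 410 and 680 CPM at P6, P8 and P11 and was 1.85-fold higher at P11. Atp6v1g2, a neuronal G subunit, had 223, 149 and 144 CPM and was 1.55-fold lower, and Atp6v0e2 had 322, 253 and 215 CPM and a log2 ratio of -0.59, just past 1.5-fold lower. With TMM or median-of-ratios factors 3 were higher, Atp6v1a, Atp6v1b2 and Atp6v0a2, and 0 lower. Over all genes more were then higher too. With TMM 988 of 7038 were higher and 485 lower, and with median-of-ratios factors 984 of 7005 were higher and 484 lower.

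Proton-gated channels and proton-sensing receptors gave 1 gene above 20 CPM out of 12, Asic2, a subunit of the acid-sensing ion channels. It had 228, 74.7 and 77.5 CPM at P6, P8 and P11. P11 lay 2.94-fold below P6, and the gene stayed past 1.5-fold lower under both other scalings too. Over all genes 12.3% were lower in CPM, and in the longest group by span 27.0% were. The ratio of Asic2 was not set against genes of like span. Of 6 genes of proton-linked monocarboxylate transport, 2 were compared, Bsg (509, 591 and 584 CPM) and Slc16a7 (24.0, 15.6 and 21.0 CPM), and both lay within 1.5-fold between P11 and P6. At P8 Slc16a7 was past 1.5-fold lower than at P6, with a ratio of 0.650 (all genes 21.7%).

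Among 9 regulators of bicarbonate transporters, 7 were compared at P11 and P6, with a median log2 ratio of -0.19. Of these 7, 0 were at least 1.5-fold higher (all genes 7.35%) and 0 lower (all genes 12.3%). With so few genes this is not far from the shares over all genes. For P8 over P6, 2 of the 7 were lower (all genes 21.7%), Stk39 with a ratio of 0.599 and Wnk2 with 0.637, and 0 were higher (all genes 7.97%). The highest ratios were those of Ahcyl1, which encodes IRBIT, an activator of NBCe1, with 299, 298 and 436 CPM at P6, P8 and P11 (1.46-fold higher at P11 than at P6), and of the kinase gene Wnk4, with 182, 175 and 262 CPM (1.44-fold). Both passed 1.5-fold with TMM or median-of-ratios factors, under which 988 of 7038 and 984 of 7005 genes were higher. Of 12 genes of hemichannels and extracellular ATP breakdown, another proposed source of cleft protons, 1 was compared. This was Gja10, which encodes connexin 57 and from which the Cre driver was made. It had 9.94, 26.1 and 25.4 CPM at P6, P8 and P11, and was 2.56-fold higher at P11 than at P6 (all genes 7.35%). Gja10 reached 20 CPM only at P8 and P11, so it entered the comparison through the ages where it was high. The cells were sorted by Cre activity driven from this gene, and the bearing of that on its level was not tested. All other genes of that list lay below 20 CPM at all 3 ages.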

How the data were processed

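RNA was measured by 10x Genomics 3' single-cell sequencing. The deposited files hold raw UMI counts, whole numbers for each feature in each barcode. Cell Ranger 7.1.0 and build mm10 are named in the submitters' processing notes, while the annotation used and the handling of intronic reads were left unstated there. Tables held 9896 (P6), 4635 (P8) and 5517 (P11) barcodes with 87939202, 65546590 and 105561999 UMIs. Cell and gene filters are given above, and 1513, 1034 and 408 barcodes fell below the gene minimum and 811, 319 and 166 exceeded the mitochondrial limit. Counts were summed over horizontal cells and divided by their total UMIs. Intervals are exact at 95% (Poisson for sums, Clopper-Pearson for shares, conditional binomial for ratios). The ratio step was tested on simulated counts with counting error only, so that test cannot speak to differences between libraries. The rule for horizontal cells used no doublet caller; Scrublet (scanpy 1.11.5) at its own threshold marked 0%, 0.244% and 0% of cells, so its highest scores were removed as an alternative. Thinning drew UMIs without replacement. TMM factors came from edgeR 4.0.16 in R 4.3.3, other steps from Python 3.11.15 with numpy 2.4.6, scipy 1.17.1 and pandas 2.3.3. Positions came from GENCODE vM21. An X-like barcode held UMIs of at least 3 markers of 1 class, at most 1 of any other class and none of the 3 horizontal markers. All 8 members are named, as are up to 2 genes past 1.5-fold each way per companion list and the 8 genes nearest Slc4a3, without mitochondrial, ribosomal, hemoglobin and sex-linked genes and provisional symbols. Other genes in the text, such as Calb1, Mgarp and the highest of a list, were chosen after their values were seen. Members, lists and tests were chosen with earlier results of these data known.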

Additional observations from a re-analysis of the deposited data

Results flagged for a closer look

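Barcodes that the filters left out held Slc4a3 at higher levels than the horizontal cells kept. In the 1513 barcodes below 1000 genes at P6, 1034 at P8 and 408 at P11, Slc4a3 stood at 605, 1104 and 2482 CPM, against 506, 851 and 2161 CPM in horizontal cells. In the 811, 319 and 166 barcodes over 10% mitochondrial UMIs it stood at 1002, 1915 and 4231 CPM. These values are listed because they lie outside the cells compared and above the level in them. Of the barcodes over the mitochondrial limit, 641, 292 and 153 also met the horizontal cell rule, and these had 1006, 1907 and 4217 CPM of Slc4a3. The order of the ages was the same as in the cells kept. In all barcodes over the limit Slc4a5 was also higher than in horizontal cells, by 1.78-fold, 2.11-fold and 1.66-fold, while Calb1 was lower, at 0.549, 0.655 and 0.695 of its level there. Why they differ was not tested.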

How the results depend on the processing

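Of the member ratios, those of Slc4a2 (P11 over P6, -0.27 to 0.31), Slc4a4 (P8 over P6, -0.02 to 0.37) and Car14 (P11 over P8, -0.59 to 1.14) took both signs over the alternatives run, and the others kept theirs. The log2 ratio of Slc4a3, P11 over P6, was 2.10, and it was 2.29 with TMM or median-of-ratios factors, 2.12 without mitochondrial genes and Malat1 in the total, 2.07 with no mitochondrial limit (an alternative chosen after seeing the data), 2.07 in cells of 10000 to 30000 UMIs, 2.14 in cells thinned to 3000 UMIs and 2.13 as a mean over cells; the cause was not tested. Members at least 1.5-fold higher at P11 numbered 5 with TMM, 5 with median-of-ratios factors, 4 in cells thinned to 3000 UMIs (Slc4a10 joins, at a log2 ratio of 0.61) and 1 with a minimum of 50 CPM, which 3 members reached. Members lower numbered 2 with no minimum level, where Car14 enters with 9 UMIs at P11 and 17 at P6, and 0 at 50 CPM. All genes higher and lower numbered 988 and 485 of 7038 with TMM, and 984 and 484 of 7005 with median-of-ratios factors. In cells thinned to 3000 UMIs they numbered 541 and 892 of 7175. With no minimum they numbered 3855 and 8215 of 23834, and at 50 CPM 333 and 489 of 4124. Under these last 2 settings more or fewer genes are compared. Over the alternatives run the log2 ratio P11 over P6 ranged from -1.29 to -1.05 for Slc4a7, 0.64 to 0.90 for Slc4a4, 0.60 to 0.91 for Car2, 0.48 to 0.71 for Slc4a8 and 0.40 to 0.66 for Slc4a10. Those alternatives include removal of 512, 165 and 230 barcodes with high Scrublet scores and of cells with 2 markers of another class. No paired analysis was possible because each age has 1 library, and for the same reason no replicate could be left out. Depth limits Car14 and Slc4a2, whose P11 to P6 directions are not known.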

Other observations

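Chloride transporter genes, which set the chloride gradient that an anion exchanger works with, were looked at after other results were known. Slc12a5, which encodes the chloride exporter KCC2, had 79.7, 124 and 190 CPM at P6, P8 and P11 in horizontal cells and was 2.38-fold higher at P11 than at P6 (2.31 to 2.45). Slc12a2, which encodes the chloride importer NKCC1, had 268, 173 and 267 CPM, with a P11 to P6 ratio of 0.998 (0.980 to 1.02). At P11 NKCC1 transcripts thus still had the higher count of the pair. These values have no replicate check.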
